A study of Mus musculus with 6 samples.

Results

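H3K9me3 peaks centred on endogenous retroviruses of the ERV1 family were examined in Bergmann glia (BG) of mouse pups at postnatal day 10. BG are astroglia of the cerebellum whose radial fibres guide migrating granule cells. A peak was taken as a member when the authors' annotation of the peak centre named a repeat with the family given exactly as ERV1. This held for 1035 of the 34673 peaks that the authors listed as present in WT BG and absent in Setdb1 mutant BG (2.99%, 95% Wilson interval 2.81 to 3.17%), called WT-specific peaks here. The study asked which regions of BG chromatin depend on Setdb1 for H3K9me3. ChIP-seq was run on 2 libraries of mutant BG (labelled MT), 2 libraries of WT BG (labelled WT) and 2 control libraries, all from C57BL/6 cerebellum at day 10. The control libraries are titled input and tagged IgG, and no source used here gives their genotype. In the mutant line, Setdb1 flox/flox mice carried mGFAP-Cre, which by the study's account acts in the neural cells of the cerebellum apart from Purkinje cells, so the deletion was not limited to BG. For the study's RNA-seq of mutant and control BG at day 10, cells were sorted from mice that carried Nes GFP in both genotypes. Its ChIP methods refer back to an isolation of BG from Nes GFP or Mash1 iTom brains. No source used here says which of these reporters the ChIP mice carried. Nor is it said whether same-genotype libraries were made from different mice, or which sex those mice had.

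The list merges the libraries. It holds a position, a score, a nearest gene and a repeat for each peak, and no value per library. No value below therefore has a replicate error, the depth behind the peaks is unknown, and no difference between mutant and WT BG was tested. The scale of the score is not given, so it serves only to rank peaks within the list. Intervals are 95% intervals for counting error that take peaks as independent, which neighbouring peaks and copies of 1 repeat are not.

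ERV1 elements are class I endogenous retroviruses, related to gammaretroviruses such as murine leukemia virus (MLV). A full element has an internal part, with the remains of the gag, pol and env genes, between a pair of long terminal repeats (LTRs) that hold its promoter and polyadenylation signal, and recombination between the LTRs often leaves a solitary LTR. In mouse embryonic stem cells, KRAB zinc finger proteins bind such elements and bring Trim28 and Setdb1, a methyltransferase that places H3K9me3, the mark of silent chromatin.

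The ERV1 peaks carried 71 repeat names, of which 29 had at least 10 peaks and together held 891 peaks, while 14 names had a single peak. The 10 most frequent names held 510 peaks (49.3%). LTRIS2, an LTR related to the MuRRS elements (murine retrovirus-related sequences), was the most frequent name with 97 peaks (9.37%, 7.74 to 11.3%). MURVY-int, the internal part of a retrovirus-like element repeated on the Y chromosome, followed with 78 peaks. The others were RLTR1B with 69, MuRRS4-int with 49, LTRIS_Mus with 42, MURVY-LTR with 37, MMVL30-int with 36, MMERGLN-int with 35, RLTR6B_Mm with 34 and RLTR5_Mm with 33. Internal parts made up 345 peaks (33.3%, 30.5 to 36.3%) and LTRs 690.

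Names differed in the share of their peaks that held 1 common stretch of sequence. This share depends on the part of the element under each peak as well as on similarity. For each name, the stretch of 40 bases held without mismatch by most of its peaks was looked up on both strands of GRCm38.p6, the build that mm10 denotes. It is shown here in lower case and on the forward strand for LTR names that the results below turn on, each at a peak that has it.
RLTR5_Mm (chrY:37736808-37736847): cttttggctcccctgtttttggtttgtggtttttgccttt
RLTR6B_Mm (chr12:76736138-76736177): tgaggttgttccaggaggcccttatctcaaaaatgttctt
LTRIS_Mus (chr17:23642764-23642803): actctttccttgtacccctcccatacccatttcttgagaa
RLTR1B (chr17:66612508-66612547): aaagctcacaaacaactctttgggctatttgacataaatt
LTRIS2 (chr1:179369095-179369134): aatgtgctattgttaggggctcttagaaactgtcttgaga

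The stretch of RLTR5_Mm stood in 25 of its 33 peaks (75.8%) and in 1 ERV1 peak of another name. That of RLTR6B_Mm, an LTR of VL30 elements, stood in 20 of 34 peaks (58.8%). The LTRIS_Mus stretch was the least particular to its name, with 17 of 42 LTRIS_Mus peaks and 11 other ERV1 peaks. RLTR1B had its stretch in 19 of 69 peaks (27.5%) and LTRIS2 in 23 of 97 (23.7%). Outside ERV1, the 5 stretches were found in no peak for RLTR5_Mm, in 1 for LTRIS2, in 3 for LTRIS_Mus, in 4 for RLTR6B_Mm and in 6 for RLTR1B.

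**Figure D1:**
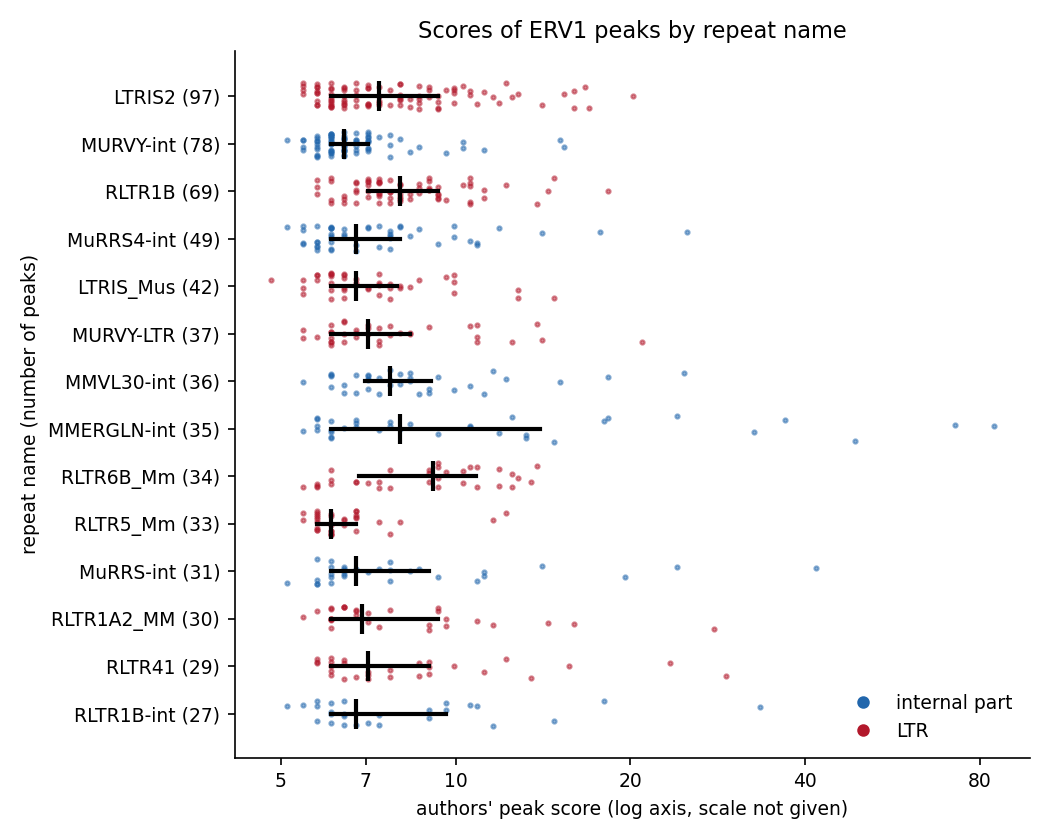
Authors' score of each ERV1 peak (points, log axis) for the 14 repeat names with most peaks, with the median (vertical tick) and quartiles (bar), internal parts in blue and LTRs in red. MMERGLN-int has the widest spread, from 5.46 to 84.4, and RLTR6B_Mm the highest median of the names drawn, 9.15.

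Scores of the ERV1 peaks ran from 4.81 to 84.4, with a median of 7.06 and quartiles of 6.10 and 8.99. Names differed in level and in spread, as the plot of scores by name shows. RLTR6B_Mm had the highest median of the names with at least 10 peaks, 9.15, and 20 of its 34 peaks (58.8%, 42.2 to 73.6%) scored 8.99 or more, a level reached by 7651 of all 34673 peaks. RLTR4_MM-int, the internal part of MLV-like proviruses, had a median of 8.99 over 11 peaks, and LTRIS6 had 8.66 over 13. LTRIS4A, MMERGLN-int and RLTR1B had 8.02, MMVL30-int had 7.70, and LTRIS2, MMERGLN_LTR, RLTR1D and RodERV21-int had 7.38. MMERGLN-int is the internal part of GLN elements, gammaretrovirus-like proviruses. Its upper quartile was 14, above the upper quartiles of RLTR6B_Mm (10.8) and of RLTR1B (9.31). At the low end, RLTR5_Mm had a median of 6.10 with 2 of 33 peaks (6.06%, 1.68 to 19.6%) at 8.99 or more, and MURVY-int had 6.42 with 6 of 78 (7.69%, 3.57 to 15.8%). The intervals of RLTR6B_Mm and of these names do not overlap. LTRIS2 spanned 5.46 to 20.2, with 29 of 97 peaks (29.9%, 21.7 to 39.6%) at 8.99 or more, close to the share in ERV1 as a whole. The highest of its peaks was 103 kb upstream of Adcy1, an adenylate cyclase, and the highest RLTR5_Mm peak, of 12.2, was one of its 3 outside Y, 76.7 kb upstream of Ccnh, a cyclin.

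Internal parts held 8 of the 10 highest ERV1 peaks, and MMERGLN-int alone held 5. Over the whole family the median score was 6.74 for internal parts and 7.06 for LTRs. A score of 8.99 or more was found in 23.2% of internal parts and 26.5% of LTRs (difference -3.33 points, -8.70 to 2.36). On chromosomes 1 to 19 this difference had the other sign, with 31.9% of internal parts and 27.9% of LTRs (4.05 points, -2.87 to 11.4). Both intervals hold negative and positive values. The first of the 10 highest peaks, with a score of 84.4 and a width of 2983 bp, was intergenic at chr4:75069429-75072412. It lay 207 kb from the TSS of Dmac1, which acts in assembly of respiratory complex I. It ranked 25 among all WT-specific peaks. The second scored 72.5 and covered 2787 bp at chr6:7722813-7725600, 31.0 kb upstream of the TSS of Asns, which makes asparagine. The third was an RLTR4_MM-int peak of 68.0 and 2644 bp at chr10:22740488-22743132, 10.4 kb upstream of Tbpl1, a relative of the TATA-binding protein. These 3 were also the widest ERV1 peaks, and their centres had 59, 54 and 48 near-identical copies elsewhere in the genome (at least 95% identity over at least 90% of the 300 bp around the centre).

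The other 7 scored between 29.2 and 48.8. A MMERGLN-int peak of 48.8 lay 6.16 kb upstream of Rprd1a, a regulator of RNA polymerase II phosphorylation. A MuRRS-int peak of 41.7 lay 145 kb from Stim2, a calcium sensor of the endoplasmic reticulum. A MMERGLN-int peak of 36.9 lay 29.2 kb upstream of Trem1, a receptor of myeloid cells. The one inside a gene was an RLTR1B-int peak of 33.4 in intron 1 of 13 of Raph1, an adaptor of actin dynamics, 20.02 kb from its TSS. The others were a MMERGLN-int peak of 32.7 near 4930562C15Rik, an RLTR6C_Mm peak of 29.8 upstream of Mmrn1 and an RLTR41 peak of 29.2 on chromosome X near Btbd35f3. Of the 10, 3 had no copy at 95% identity, namely those at Trem1, Raph1 and 4930562C15Rik.

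High scores were less frequent among ERV1 peaks than among ERVK peaks and more frequent than among ERVL-MaLR peaks. The median score was 7.06 for ERV1, 7.70 for ERVK and 7.06 for ERVL, ERVL-MaLR and all other peaks, so that ERV1 and ERVL-MaLR differed in the upper part of their scores, with upper quartiles of 8.99 and 8.34. ERVK is the family of the IAP elements, and ERVL-MaLR holds mostly older, non-autonomous elements. A score of 8.99 or more was found in 263 of 1035 ERV1 peaks (25.4%, 22.9 to 28.2%), in 1645 of 4507 ERVK peaks (36.5%, 35.1 to 37.9%), in 159 of 551 ERVL peaks (28.9%, 25.2 to 32.8%) and in 646 of 3106 ERVL-MaLR peaks (20.8%, 19.4 to 22.3%). The difference was -11.1 percentage points from ERVK (Newcombe interval -14.0 to -8.01), 4.61 points from ERVL-MaLR (1.67 to 7.68) and 3.45 points from all other peaks (0.851 to 6.22). At a score of 11.2 or more, the difference from all other peaks was 1.85 points with an interval of -0.0215 to 4.00, which includes 0. At 8.99 or more, the difference from ERVL was -3.45 points with an interval of -8.13 to 1.10, which includes 0. On chromosomes 1 to 19 alone the ERV1 share was 29.0% (26.0 to 32.1%), and the difference was -8.79 points from ERVK (-12.1 to -5.28), 8.75 points from ERVL-MaLR (5.42 to 12.2) and 7.29 points from all other peaks (4.27 to 10.5).

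**Figure D2:**
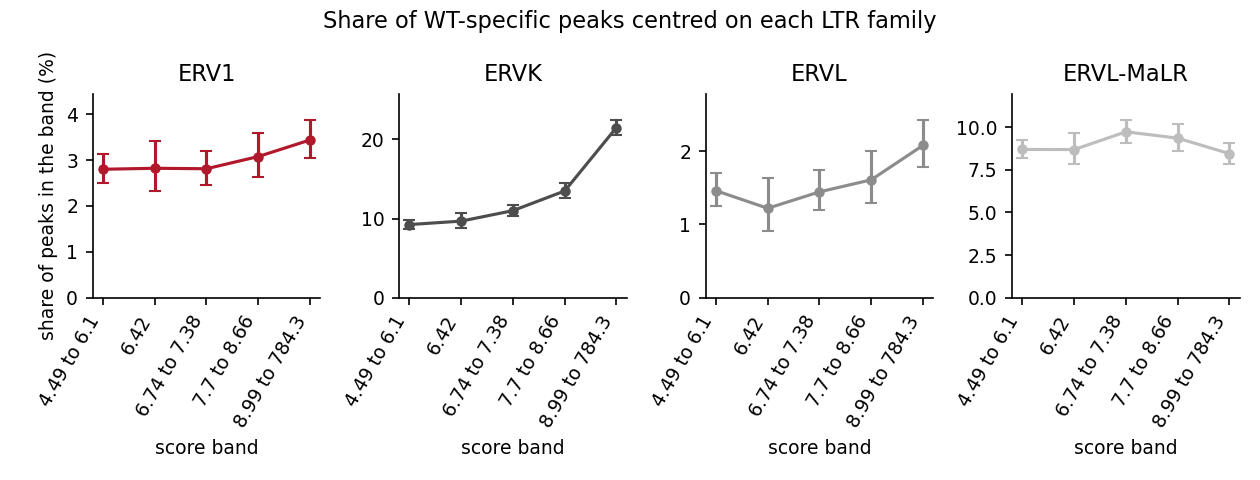
Share of the WT-specific peaks in each band of score (x axis, limits of each band, with equal scores kept together) that were centred on ERV1, ERVK, ERVL and ERVL-MaLR (y axis, %, each panel on its own scale from 0), with 95% Wilson intervals. ERV1 runs from 2.80% in the lowest band to 3.44% in the highest, and ERVK from 9.25% to 21.5%.

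Across bands of score, the ERV1 share changed less than that of ERVK, which went from 9.25% in the lowest band to 21.5% in the highest. The ERV1 share was 2.80% (2.50 to 3.13%) among peaks of 6.10 or less, 2.82% at 6.42, 2.81% from 6.74 to 7.38, 3.08% from 7.70 to 8.66 and 3.44% (3.05 to 3.87%) at 8.99 or more. The intervals of the lowest and the highest band overlap for ERV1, and for ERVK they do not. Such an overlap is not a test of the difference. Within ERV1, peaks of the highest band were less often on chromosome Y than those of the lowest, 3.05% (1.56 to 5.91%) against 25.4% (20.8 to 30.6%). They also had a higher ratio of observed to expected CpG dinucleotides, with a median of 0.316 against 0.244.

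Most ERV1 peaks had a width of 500 bp, the median of the family. A width over 500 bp was found in 257 ERV1 peaks (24.8%, 22.3 to 27.6%), in 32.4% of ERVK peaks (difference -7.59 points, -10.5 to -4.55) and in 22.8% of all other peaks (difference 2.03 points, -0.549 to 4.78). The difference from all other peaks was 3.33 points on chromosomes 1 to 19 (0.430 to 6.46). Only 36 ERV1 peaks (3.48%, 2.52 to 4.78%) were wider than 1000 bp. After the 3 peaks named above, the widest were an RLTR1A2_MM peak of 1962 bp with a score of 27.9, nearest to the non-coding RNA gene 1110002J07Rik, and a MMERGLN-int peak of 1958 bp with 24.1, nearest to the non-coding Gm20597.

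**Figure D3:**
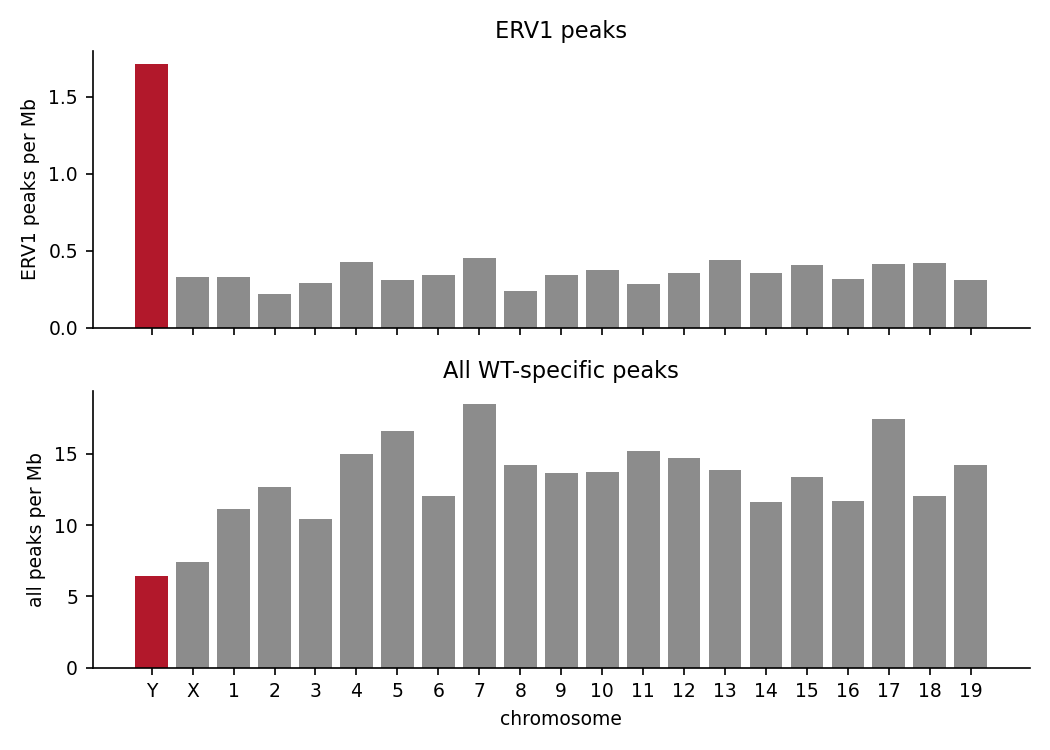
ERV1 peaks (top) and all WT-specific peaks (bottom) per Mb of sequenced chromosome, chromosome Y in red. ERV1 peaks reach 1.71 per Mb on Y, against 0.219 to 0.451 on chromosomes 1 to 19, while all peaks are fewer per Mb on Y than on any other chromosome.

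Chromosome Y held 151 ERV1 peaks, 14.6% of them (12.6 to 16.9%), although it held few WT-specific peaks in all. The same share was 5.84% for ERVK (difference 8.75 points, 6.61 to 11.1), 1.09% for ERVL, 0.0322% for ERVL-MaLR, which had 1 peak there, and 1.23% for all other peaks (difference 13.4 points, 11.3 to 15.6). Of the 566 peaks on Y, 26.7% (23.2 to 30.5%) were ERV1, against 829 of 32819 on chromosomes 1 to 19 (2.53%), a difference of 24.2 points (20.7 to 27.9). ERVK was also more frequent there, with 46.5% of the peaks on Y and 12.03% of those on chromosomes 1 to 19, a difference of 34.4 points (30.4 to 38.6). Per Mb, ERV1 peaks were 4.95 times as frequent on Y as on chromosomes 1 to 19 (1.71 against 0.346), while peaks of all kinds were 0.469 times as frequent. Chromosome 7 had the highest density of the autosomes, 0.451 per Mb, and chromosome 2 the lowest, 0.219. Chromosome X had 54 ERV1 peaks, 0.330 per Mb.

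The Y peaks came from few names and lay along the whole chromosome. MURVY-int accounted for 76 of them, which is 97.4% of its own 78 peaks, and RLTR5_Mm for 30, which is 90.9% of its 33. MuRRS4-int had 16 of its 49 peaks on Y, MURVY-LTR 10 of 37, MuRRS-int 10 of 31 and RLTR6B_Mm 4 of 34. LTRIS2, RLTR1B, LTRIS_Mus and MMERGLN-int had none there. The near-identical stretches of these elements, the peaks' own places included, were also often on Y. For MURVY names 1360 of 1409 stretches (96.5%) lay there, and for RLTR5_Mm 480 of 492 (97.6%). For MuRRS and LTRIS names it was 1037 of 2773 (37.4%). From the start of the chromosome, successive bins of 10 Mb held 20, 10, 14, 17, 17, 20, 17, 16, 19 and 1 ERV1 peaks, the last bin being a short remainder.

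Scores on Y were low. They ran from 5.13 to 15.4 with a median of 6.10, against 4.81 to 84.4 and 7.38 on chromosomes 1 to 19, and 8 of 151 peaks on Y (5.30%) reached 8.99, against 240 of 829 (29.0%), a difference of -23.7 points (-27.8 to -18.0). The strongest Y peak was a MURVY-int peak of 15.4 at chrY:88729395-88730865. All 151 Y peaks had a near-identical copy elsewhere in the genome, with a median of 196 copies, against 242 of 829 (29.2%) on chromosomes 1 to 19. Reads with several matches had been placed at a single best-scoring location before peak calling, so reads of such copies cannot be told apart in the list. The part of this step, of the number of copies on Y and of the animals' sex in the Y counts was not tested.

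**Figure D4:**
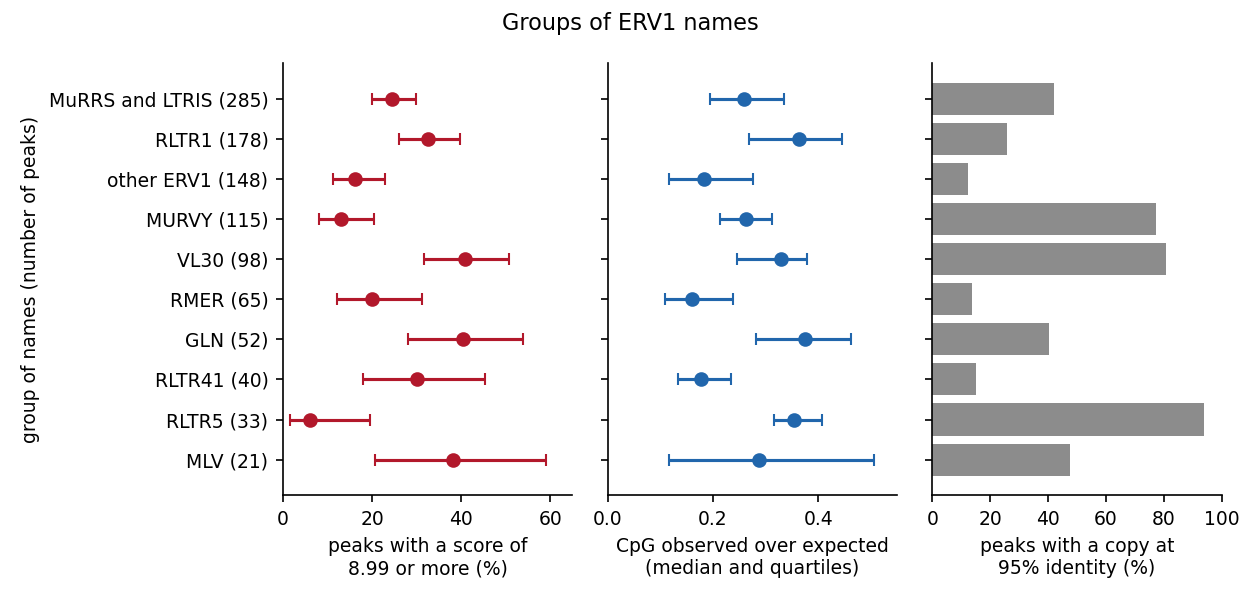
Groups of ERV1 names (rows, number of peaks in parentheses) with the share of peaks that scored 8.99 or more and its 95% Wilson interval (left), the median and quartiles of the CpG ratio (middle) and the share of peaks with a copy elsewhere at 95% identity or more (right). VL30 and RLTR5 both have copies for most peaks, 80.6% and 93.9%, and stand at 40.8% and 6.06% in the share of high scores.

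Names were put into groups by how they begin. MuRRS and LTRIS names had 285 peaks, RLTR1 names 178, MURVY 115, VL30 (MMVL30 and RLTR6) 98, RMER 65, GLN (MMERGLN) 52, RLTR41 40, RLTR5 33 and MLV (RLTR4 and MuLV) 21, and 32 further names held 148. The share with a score of 8.99 or more was highest in VL30, with 40 of 98 peaks (40.8%, 31.6 to 50.7%), and in GLN, with 21 of 52 (40.4%, 28.2 to 53.9%). RLTR1 had 32.6% (26.1 to 39.8%) and MuRRS and LTRIS 24.6% (19.9 to 29.9%). MURVY, with 13.0% (8.07 to 20.4%), and RLTR5, with 6.06%, were the lowest, and their intervals lie below that of VL30. On Y lay 86 of the 115 MURVY and 30 of the 33 RLTR5 peaks, and 5.30% of all ERV1 peaks there reached 8.99. The parts of name and of chromosome in these shares were not tested. Those of MLV, RLTR41 and RMER are wide and overlap the ERV1 share as a whole.

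Near-identical copies were common in some groups and rare in others. Over all ERV1, 428 of the 1034 peaks on assembled chromosomes (41.4%, 38.4 to 44.4%) had at least 1 copy, against 46.8% of ERVK peaks (difference -5.37 points, -8.67 to -2.01), 48.4% of ERVL peaks and 14.4% of ERVL-MaLR peaks (difference 27.0 points, 23.8 to 30.2). At 90% identity the differences from ERVK and ERVL had the other sign, 1.11 points from ERVK (-2.23 to 4.39) and 10.3 points from ERVL (5.17 to 15.4). On chromosomes 1 to 19 alone the ERV1 share was 29.2%, against 41.7% for ERVK and 12.8% for ERVL-MaLR. Copies were found for 93.9% of RLTR5 peaks, 80.6% of VL30, 77.2% of MURVY, 42.1% of MuRRS and LTRIS, 25.8% of RLTR1, 15.0% of RLTR41 and 13.8% of RMER. The largest number, 497, belonged to a peak of the VL30 group. None of the 30 RLTR1A2_MM peaks and none of the 13 LTRIS6 peaks had one. Internal parts had a copy more often than LTRs, 56.8% against 33.7%, a difference of 23.1 points (16.7 to 29.3). That difference was 6.85 points on chromosomes 1 to 19, with an interval of -0.181 to 14.2, which includes 0.

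Copies other than the centres of the same group's own peaks were counted for overlap with a WT-specific peak. These counts equal all stretches less the number of the group's peaks on assembled chromosomes. A further stretch inside the same wide peak therefore still counts as an overlapping copy. No share for other stretches of the genome was computed. With the own places left out, these shares therefore cannot be called low or high. Stretches with at least 95% identity to the centre of a VL30 peak numbered 1513 with the VL30 peaks' own places taken off, and 12 of them (0.793%, 0.454 to 1.38%) overlapped a WT-specific peak. The count was 2 of 459 for RLTR5 (0.436%, 0.12 to 1.57%), 5 of 363 for MLV (1.38%, 0.590 to 3.18%) and 43 of 2488 for MuRRS and LTRIS (1.73%, 1.29 to 2.32%). It was 30 of 1295 for MURVY (2.32%, 1.63 to 3.29%), 16 of 636 for GLN (2.52%, 1.55 to 4.05%), 9 of 296 for RLTR1 (3.04%, 1.61 to 5.68%) and 3 of 138 for the further names (2.17%, 0.742 to 6.20%). RLTR41, with 2 of 23, and RMER, with 0 of 16, had too few copies for a narrow interval (2.42 to 26.8% for RLTR41, up to 19.4% for RMER). With the peaks' own places counted in, the shares ran from 6.77% in MLV to 80.2% in RMER, and the peaks' own places made up most of the overlapping stretches in each group. The list does not say whether the other copies lacked H3K9me3 in WT BG, kept it in mutant BG or received no reads.

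The sequence of the ERV1 peaks was close to that of other peaks in base content and richer in CpG. GC content had a median of 48.1% (quartiles 46.3 and 49.9%), against 47.3% for ERVK and 49.1% for all other peaks. The CpG ratio had a median of 0.270 (0.183 and 0.359), against 0.308 for ERVK, 0.203 for ERVL, 0.152 for ERVL-MaLR and 0.203 for all other peaks. Within ERV1, GLN (0.375), RLTR1 (0.364), RLTR5 (0.354) and VL30 (0.330) had the highest medians and RMER (0.161) and RLTR41 (0.178) the lowest. The first 4 peaks by score had ratios of 0.478 to 0.507. RLTR5 combined a high ratio with the lowest scores of the groups. Its median score of 6.10 was also that of all ERV1 peaks on Y, where 30 of its 33 peaks lay.

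**Figure D5:**
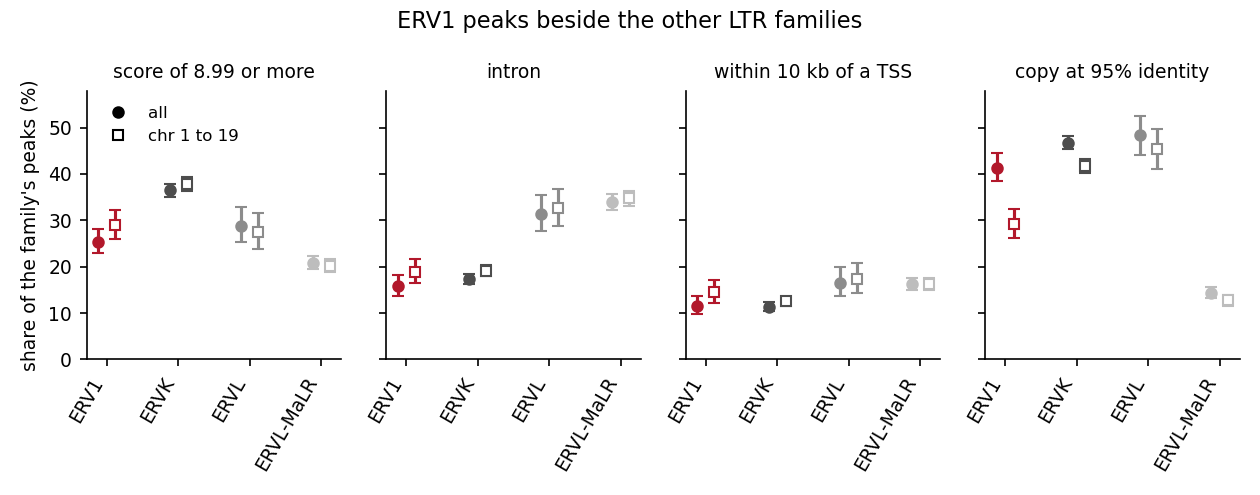
Share of the peaks of each LTR family (%, with 95% Wilson intervals) that scored 8.99 or more, lay in an intron, lay within 10 kb of a TSS or had a copy at 95% identity, over all chromosomes (filled circles) and on chromosomes 1 to 19 (open squares). ERV1 has 15.8% of its peaks in introns, close to ERVK and below ERVL and ERVL-MaLR.

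ERV1 peaks lay mostly between genes. The authors classed 870 as intergenic and 164 as intronic (15.8%, 13.7 to 18.2%), and 1 had no class. Since repeats are named only for intronic and intergenic peaks in this list, and for none of the 2181 peaks of other classes, ERV1 peaks at promoters or exons cannot appear. The intronic share was 17.3% for ERVK (difference -1.42 points, -3.80 to 1.17), 31.4% for ERVL (-15.6 points, -20.1 to -11.1) and 33.9% for ERVL-MaLR (-18.1 points, -20.7 to -15.2). Over chromosomes 1 to 19 it was 18.9% for ERV1, 19.1% for ERVK and 34.7% for ERVL-MaLR, since only 1 of the 151 peaks on Y was intronic. LTRs were more often intronic than internal parts, with 10.1% of internal parts and 18.7% of LTRs, a difference of -8.55 points (-12.7 to -4.00). That difference was -4.32 points on chromosomes 1 to 19, with an interval of -9.74 to 1.89, which includes 0.

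The median distance to the nearest TSS was 55.3 kb for ERV1 peaks, 67.0 kb for ERVK, 39.4 kb for ERVL-MaLR and 36.9 kb for all other peaks. Within 10 kb of a TSS lay 120 ERV1 peaks (11.6%, 9.78 to 13.7%), none of them on X or Y, against 11.3% of ERVK, 16.3% of ERVL-MaLR (difference -4.66 points, -6.92 to -2.22) and 19.7% of all other peaks (difference -8.06 points, -9.92 to -5.92). On chromosomes 1 to 19 the difference from ERVL-MaLR was -1.79 points (-4.40 to 1.07), an interval that includes 0. Within 1 kb lay 2 peaks, both in first introns: an RLTR14_RN peak of 21.2 at 8430426J06Rik, a non-coding RNA gene, and an LTRIS2 peak of 5.78 at Sh2d4b, which encodes an SH2 domain protein.

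Short motifs of retroviral LTRs and leaders were searched on both strands of each peak, as letters only. The primer binding site, where a tRNA primes reverse transcription, starts just inside the upstream LTR, and elements are often named for that tRNA. The first letters for proline (TGGGGGCTC), glutamine (TGGAGGTNC) or glycine tRNA (TGGTGCATT) stood in 80 of 1034 ERV1 peaks (7.74%, 6.26 to 9.53%), against 3.03% of ERVK, 3.09% of ERVL-MaLR and 3.53% of all other peaks (difference 4.21 points, 2.72 to 6.01). Glutamine letters were found in 13 MuRRS4-int and 7 RLTR1B-int peaks, glycine letters in 9 RLTR5_Mm peaks, and proline letters in 4 MuRRS-int and 3 MMERGLN-int peaks. The rest of each site was not matched, so these letters alone do not show a primer binding site. The letters for phenylalanine tRNA (TGGTGCCGA) stood in 1 ERV1 peak and 131 ERVK peaks.

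The letters that start a lysine tRNA site, TGGCGCCCN, stood in 41 ERV1 peaks (3.97%, 2.94 to 5.34%), against 1.62% of ERVK peaks and 0.697% of all other peaks, and 35 of the 41 were LTRIS2. The bases after these letters were not matched to the rest of a lysine site, so no lysine primer binding site is shown for LTRIS2. The NFI subunit site TTGGCA, bound by the family that includes Nfix, stood in 334 ERV1 peaks (32.3%, 29.5 to 35.2%), in 38.5% of ERVK, 44.0% of ERVL, 28.7% of ERVL-MaLR and 29.0% of all other peaks (difference 3.27 points, 0.450 to 6.22). By name it was in 33 of 34 RLTR6B_Mm peaks and 28 of 42 LTRIS_Mus peaks, and in 1 of 33 RLTR5_Mm peaks. A window around the letters in the highest-scoring peak that has room for it is shown for LTRIS2 and RLTR6B_Mm, with the letters in capitals.
LTRIS2 (chr5:148176765-148176893, reverse strand, peak score 15.4): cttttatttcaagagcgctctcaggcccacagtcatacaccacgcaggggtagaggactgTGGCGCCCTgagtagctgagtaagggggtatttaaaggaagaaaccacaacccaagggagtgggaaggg
RLTR6B_Mm (chr12:76736055-76736180, forward strand, peak score 13.8): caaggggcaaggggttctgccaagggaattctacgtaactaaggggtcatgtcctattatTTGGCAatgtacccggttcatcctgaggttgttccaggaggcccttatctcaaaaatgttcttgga

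The TTGGCA of RLTR6B_Mm with the 10 bases on either side was the same in 12 of 34 RLTR6B_Mm peaks, in no other ERV1 peak and in 4 peaks outside ERV1. The lysine letters of LTRIS2 with their 10 bases on either side were the same in 2 of 97 LTRIS2 peaks. The polyadenylation signal AATAAA stood in 50.6% of ERV1 peaks, against 56.9% of ERVK and 36.8% of all other peaks (difference 13.8 points, 10.7 to 16.9), and TATAAA in 38.2%, against 37.9% of ERVK and 24.7% of all other peaks (difference 13.5 points, 10.6 to 16.6). On chromosomes 1 to 19 the difference from ERVK was -2.76 points for AATAAA (-6.49 to 0.944) and 4.02 points for TATAAA (0.392 to 7.71), so that the interval for AATAAA includes 0 there and the one for TATAAA does not. AATAAA was found in 31 of 34 RLTR6B_Mm and 83 of 97 LTRIS2 peaks, but in 2 of 33 RLTR5_Mm peaks, 32 of which held TATAAA.

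Another WT-specific peak lay within 10 kb of 34.5% of ERV1 peaks (31.7 to 37.4%) and of 33.3% of all other peaks (difference 1.22 points, -1.66 to 4.21). The share was 41.2% for internal parts and 31.2% for LTRs, a difference of 10.0 points (3.81 to 16.2). Among names with at least 10 peaks it was highest in RLTR4_MM-int (8 of 11, 72.7%) and MMERGLN-int (23 of 35, 65.7%). ERV1 peaks lay within 10 kb of each other in 46 groups that held 95 peaks (9.18%), 44 of them pairs. In 32 groups all names belonged to 1 group of names, and in 8 of those an LTR stood beside an internal part. On Y lay 11 groups. The largest, of 4 peaks over 15.7 kb, was next to Asns and consisted of RLTR41, a pair of MMERGLN-int peaks and MMERGLN_LTR, with a highest score of 72.5. At Raph1, RLTR1B-int and RLTR1B peaks spanned 2.73 kb, and at Tbpl1 a pair of RLTR4_MM-int peaks spanned 5.08 kb.

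Of 21900 protein-coding genes, 652 (2.98%) were named by the authors as the nearest to at least 1 ERV1 peak. Over all kinds of genes, 796 were named, 680 of them with 1 ERV1 peak and 32 with 3 or more. Of these 32, 17 were on Y. Gm20871 had 22 ERV1 peaks, Gm20736 had 18 and Gm20826 had 10, and among Y genes of known kind Ssty1 (a spermiogenesis gene of the Y long arm) had 8, Ssty2 had 7 and Rbmy (an RNA-binding protein of germ cells) had 7. The other 11 on Y, Gm or Rik gene models, had 3 to 9 each. The closest peak to a TSS among the 17 lay 13.2 kb away, at Rbmy. On other chromosomes, Asns, Hnf4g (a nuclear receptor) and AA545190 had 4 each. The 12 with 3 peaks included Snrpn, an imprinted gene, with a highest score of 7.06 and a closest distance of 51.3 kb, Trps1, a GATA-type repressor, with 10.6 and 777 kb, Gnaz, a G protein subunit, with 18 and 249 kb, Dctd, a deaminase of nucleotide metabolism, with 16.0 and 4.66 kb, and Mup5, a major urinary protein. The rest were Vwc2, Ccdc85a, Scgb1b7, Scgb2b11, Snord14c, Gm15127 and 2410089E03Rik.

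Gene lists of the tissue and of provirus silencing held few ERV1 peaks, with intervals that include the 2.98% of all protein-coding genes. Of 33 genes of provirus silencing, 1 had a peak (3.03%, 0.537 to 15.3%), namely Resf1, a partner of Setdb1 in retroelement silencing in mouse embryonic stem cells, with an RLTR6B_Mm peak of 11.9 at 49.3 kb. Setdb1 and Trim28 had none. Of 19 receptors, restriction factors and captured genes of gammaretroviruses, 1 had a peak (5.26%, 0.935 to 24.6%), Apobec3, a cytidine deaminase that restricts MLV, with an RMER2 peak of 10.9 at 23.8 kb upstream. Of 32 BG and astroglia genes, 2 had one (6.25%, 1.73 to 20.1%). These were Gria4, an AMPA receptor subunit, with an RLTR1B peak of 11.2 at 15.8 kb upstream, and Cdh20, a cadherin, with a MERV1_I-int peak of 7.06 over 1000 kb away.

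Of 80 genes of ECM-receptor interaction and collagens, 2 had an ERV1 peak (2.50%, 0.688 to 8.66%), while 54 had a WT-specific peak of any kind (67.5%, 56.6 to 76.8%). Of all protein-coding genes, 48.9% had a WT-specific peak of any kind. The BG and astroglia list had a similar share to the ECM list, 68.8% (51.4 to 82.0%). Provirus silencing had 48.5%, the genes that the study names 43.8% and the gammaretrovirus list 36.8%. These shares were not adjusted for gene length. Col18a1, the collagen from which endostatin is cut, had an MLTR14 peak of 7.38 at chr10:77104557-77105193, in intron 2 of 41 and 8.83 kb from the TSS. Itga11, a collagen-binding integrin, had an RLTR41 peak of 9.95 at 66.9 kb upstream. Col18a1 was also the 1 gene with an ERV1 peak among the 16 that the study names. None of 65 axon guidance and migration genes had an ERV1 peak, which allows a share of up to 5.58%, while 40 of them had a peak of another kind (61.5%, 49.4 to 72.4%, against 48.9% of all protein-coding genes).

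By symbol, 1.64% of ERV1 peaks (1.03 to 2.62%) were nearest to a Zfp gene, the zinc finger genes that include KRAB repressors, against 1.96% of all other peaks. For olfactory receptors (Olfr) the shares were 0.677% (0.328 to 1.39%) and 1.16%, and for vomeronasal receptors (Vmn) 1.26% (0.736 to 2.14%) and 1.32%. The intervals of the ERV1 shares include the shares of all other peaks in these 3 families.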

How the data were processed

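H3K9me3 ChIP-seq reads of 2 mutant, 2 WT and 2 control libraries were aligned by the authors with Bowtie2 2.2.8 to mm10, and peaks were called and annotated with HOMER 4.10.1 (tools and versions from the submitters' processing notes). By the study's methods, a multi-mapping read was kept at its 1 best-scoring place, at most 1 tag was kept per position, and peaks had to pass an FDR of 0.001 and a 4-fold excess over the local 10 kb. The 1 deposited table lists the peaks found in WT and absent in mutant BG, with a score per peak, given by the authors on an unstated scale, and other fields (position, distance to TSS, nearest gene and repeat). It does not show whether input or mutant libraries were the background, and it holds 0 columns of values per library, so depth per sample and replicate spread are unknown.

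Members and gene lists were chosen with earlier results of these data known. Members were compared with the other LTR families and with all other peaks by Wilson and Newcombe intervals at 95%. Shares of high scores count peaks at or above 8.99, or 11.2 as an alternative. Sequences, GC content, CpG ratios and motifs were read from GRCm38.p6, and a motif may overlap another. Copies are megablast matches (blastn 2.17.0) of the 300 bp around a peak centre with at least 95% identity over at least 90% of it, searched for LTR families only. Named were the 10 names with most peaks, the 10 with the highest median score among those with at least 10 peaks, ties kept, the 10 highest and 5 widest peaks, peaks within 1 kb of a TSS, genes nearest to 3 or more peaks (on Y, those with most peaks and those of known kind only), and list genes with a peak. Other names given were chosen after their values were seen, as was the repeat of the family comparisons on chromosomes 1 to 19. Python 3.11.15, pandas 2.3.3, numpy 2.4.6, statsmodels 0.14.6, pysam 0.24.0 and matplotlib 3.10.9 were used, and the code was tested on simulated data.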

Additional observations from a re-analysis of the deposited data

How the results depend on the processing

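No value below has a test or a replicate error, because the list merges the libraries, and depth sets a limit that the list does not show. No paired analysis was possible because the list holds no value per library. Whether a weak ERV1 peak missed the list in WT BG or stayed in mutant BG cannot be seen, and a copy without a peak is not shown to lack the mark.

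On chromosomes 1 to 19 alone, ERV1 made up 2.53% of peaks, the median score was 7.38, 29.0% of ERV1 peaks scored 8.99 or more, 18.9% were intronic, 14.5% lay within 10 kb of a TSS, the median GC content was 47.8%, 29.2% had a copy and LTRIS2 held 11.5%. Among ERV1 peaks at or above the median score of the list, 45.0% were wider than 500 bp, the median CpG ratio was 0.289, 38.2% had a copy and 410 protein-coding genes were nearest to one. With other limits, 12.1% of ERV1 peaks scored 11.2 or more, 3.48% were wider than 1000 bp, 19.3% had another peak within 5 kb and 49.5% within 20 kb, 4.73% lay within 5 kb of a TSS and 24.7% within 20 kb. A copy was found for 59.96% at 90% identity and for 24.7% at 99%, and 99 protein-coding genes had an ERV1 peak within 10 kb of the TSS. Counting uncertain ERV1 annotations as members gave no value, since the list holds 0 such peaks.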
